A study of Mus musculus with 18 samples.

Results

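The respiratory chain of mouse cells is built from genes of 2 genomes, and their transcripts were followed in newborn frontal cortex of control pups and of double mutants of Rxrg and Rarb (dKO). Members were chosen by gene symbol alone. They were the 13 protein genes of the mitochondrial genome and 81 nuclear genes whose symbols begin with Nduf (followed by a, b, c, s or v and a number), Uqcr, Cox4 to Cox8 or Atp5. These 94 genes, of 54532 in the count table, were assigned to complex I (7 mitochondrial and 35 nuclear), complex III (1 and 8), complex IV (3 and 20) and complex V (2 and 18). A symbol does not make each of them a structural subunit, and Atp5s, counted here in complex V, is named Dmac2l in RefSeq. A further 12 entries matching the symbols were pseudogenes or not protein-coding and were left out.

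RNA came from the orbital, medial and dorsal parts of the frontal cortex at postnatal day 0, in 3 control and 3 dKO libraries per region, 18 in all. The labels call the other pups control and say nothing more of them. The alleles, the strain and the number of animals are not given in the sources used here, and neither is which dissected area the label Dorsal stands for. Both mutated genes encode receptors of retinoic acid, a vitamin A derivative, that sit in the nucleus and regulate transcription. Replicates 1, 2 and 3 of each group are the sets A, B and C below, and the 3 libraries of a genotype within a set (1 per region) form a row that may or may not come from 1 brain. The p-values therefore measure only the spread between these samples, which may be technical.

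As background, the respiratory chain sits in the inner mitochondrial membrane. Complex I (NADH dehydrogenase), complex III (cytochrome bc1) and complex IV (cytochrome c oxidase) pass electrons to oxygen and pump protons, and complex V (ATP synthase) uses the proton gradient to make ATP. The mitochondrial genome encodes a few of their core subunits on long transcripts that are cut into single messages, and the nucleus encodes all the others, so both genomes have to supply each machine. Neurons are known to depend strongly on this chain, whereas progenitor cells of the developing cortex are known for a larger share of glycolysis.

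Part of the mitochondrial genome has a near-identical copy in the nuclear genome, and 2 members are shown because this copy bears on their counts. The first 120 bases of the transcripts are given 5′ to 3′ beside the annotated copy on chromosome 1 (GRCm38, minus strand), and capitals mark a base that differs.
mt-Nd3: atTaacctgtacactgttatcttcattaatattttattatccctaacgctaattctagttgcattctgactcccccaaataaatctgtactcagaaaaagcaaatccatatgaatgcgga
Gm28438: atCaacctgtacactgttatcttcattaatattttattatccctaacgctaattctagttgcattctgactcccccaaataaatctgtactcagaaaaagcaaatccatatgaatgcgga
mt-Co2: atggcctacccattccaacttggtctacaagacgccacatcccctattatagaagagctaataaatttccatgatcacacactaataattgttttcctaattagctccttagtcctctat
Gm28661: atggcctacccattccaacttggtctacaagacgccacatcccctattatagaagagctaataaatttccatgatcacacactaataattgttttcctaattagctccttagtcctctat
In these stretches mt-Nd3, a subunit of complex I, differed from its copy at 1 base, and mt-Co2, a core subunit of complex IV, at none. The copies Gm28439, Gm10222, Gm28438, Gm28437, Gm10925, Gm28661 and Gm29216 lie side by side between bases 24611535 and 24616197 of chromosome 1. A 100-base read from such a stretch can be placed in either genome.

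The promoters of 2 nuclear members are shown because these genes recur in the comparisons below. They run from 250 bases before to 50 after the start of the gene (RefSeq, GRCm38.p6, gene strand). Capitals mark matches, on either strand, to CCGGAAG (the core bound by ETS factors such as GABP, also called NRF2), CGCANGCG (the core of the NRF1 site) and AAGATGG (the core of the YY1 site), whose factors are known regulators of nuclear respiratory genes.
Uqcr11, chr10:80406772-80407071, minus strand: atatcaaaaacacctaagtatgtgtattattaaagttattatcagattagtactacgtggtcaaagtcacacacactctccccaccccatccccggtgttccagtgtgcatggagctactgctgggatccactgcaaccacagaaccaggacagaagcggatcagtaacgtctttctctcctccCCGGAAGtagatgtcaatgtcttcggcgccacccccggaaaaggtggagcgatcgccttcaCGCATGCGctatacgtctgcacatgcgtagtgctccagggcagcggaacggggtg
Ndufb8, chr19:44555393-44555692, minus strand: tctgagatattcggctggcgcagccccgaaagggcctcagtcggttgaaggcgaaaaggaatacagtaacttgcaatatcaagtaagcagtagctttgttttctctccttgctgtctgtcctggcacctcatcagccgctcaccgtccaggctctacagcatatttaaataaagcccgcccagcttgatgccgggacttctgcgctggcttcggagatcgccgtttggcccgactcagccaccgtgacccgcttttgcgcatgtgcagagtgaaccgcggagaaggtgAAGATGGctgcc
Of the 81 nuclear members 65 matched an entry of the promoter table. The NRF1 core was found in 23 of them (35.4%), against 12.5% of the promoters of 17492 protein-coding genes, and the ETS core in 14 (21.5%, against 12.9%). The YY1 core was found in 11 (16.9%, against 7.2%), and AAGGTCA, the site of estrogen-related receptors, in 7 (10.8%, against 4.7%). These are matches of letters in a fixed window and not measured binding.

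The libraries held 28957325 to 93093398 counted fragments, with set A the deepest. Sample titles begin with RAR in set A and with RXR in sets B and C, so set A differs from the others in title series as well as depth. Rarb was lower in the library labelled dKO in 9 of 9 pairs of the same region and set, and Rxrg in 8 of 9, except in the orbital pair of set A, with 2.90 CPM (a gene's share of all counted fragments, scaled to 1e6) in the library labelled dKO and 2.35 CPM in its control. The medial control library of set A stood apart from the other 17. It was the deepest, with the lowest summed markers of astrocytes (197 CPM), meningeal fibroblasts (363), microglia (90.2) and vessel cells (156) and the highest of neurons (7742). Results that rest on it are given with and without it. Neuronal markers summed to 4978 to 7742 CPM over the 18 libraries, so the labelled tissue's own markers were present in each.

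Within the mitochondrial genome, 3 genes gave most of the counted transcripts. mt-Co1 (the catalytic subunit of complex IV) ranged from 1465 to 5206 CPM over the 18 libraries, mt-Cytb (the cytochrome b of complex III) from 1087 to 3850 CPM, and mt-Nd1 (a membrane subunit of complex I) from 814 to 3104 CPM. Together they made up 79.2% to 83.5% of the mitochondrial sum in every library. Per kilobase of counted exon, mean levels were 1622 CPM for mt-Cytb, 1573 for mt-Co1 and 1535 for mt-Nd1. The other subunits of complex I lay lower per kilobase, at 313 CPM for mt-Nd2, 268 for mt-Nd5, 260 for mt-Nd4, 166 for mt-Nd3 and 112 for mt-Nd6. mt-Co3 (complex IV) lay at 15.8 CPM per kilobase, mt-Atp6 (the proton channel subunit of complex V) at 4.44, mt-Co2 at 4.02, mt-Atp8 (complex V) at 1.10 and mt-Nd4l (complex I) at 0.211.

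Mitochondrial genes differed in how much sequence they have in common with other annotated transcripts. Every possible 100-base window of each transcript was looked up in all others: 99.9% of the windows of mt-Co3 were also found elsewhere, 99.5% of mt-Co2 and of mt-Atp6, 98.5% of mt-Nd4l and 97.6% of mt-Nd3. The share was 60.8% for mt-Nd4, 30.8% for mt-Co1, 3.2% for mt-Nd2 and 0% for mt-Nd1, mt-Nd5, mt-Nd6, mt-Cytb and mt-Atp8. Of the 5 genes with shares of 97.6% or more, 4 lay at 15.8 CPM per kilobase or lower and mt-Nd3 at 166. mt-Atp8, which is very short, was also low, with a share of 0%, but the lookup covered annotated transcripts only. In the mitochondrial genome mt-Atp8 lies between mt-Co2 and mt-Atp6. The copies of mt-Co2 and mt-Atp6 (Gm28661 and Gm10925) are neighbours on chromosome 1, and no copy is annotated between them. A share of 0% therefore does not show that mt-Atp8 or another gene lacks a nuclear copy. How reads with several placements were handled is not stated in the files, and the part this plays in the levels was not tested. Within-gene comparisons between groups use the same transcript throughout, and the 5 genes with under 5% of repeated windows and over 1000 counts in every library (mt-Nd1, mt-Nd2, mt-Nd5, mt-Nd6 and mt-Cytb) are given beside the whole set below.

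**Figure D1:**
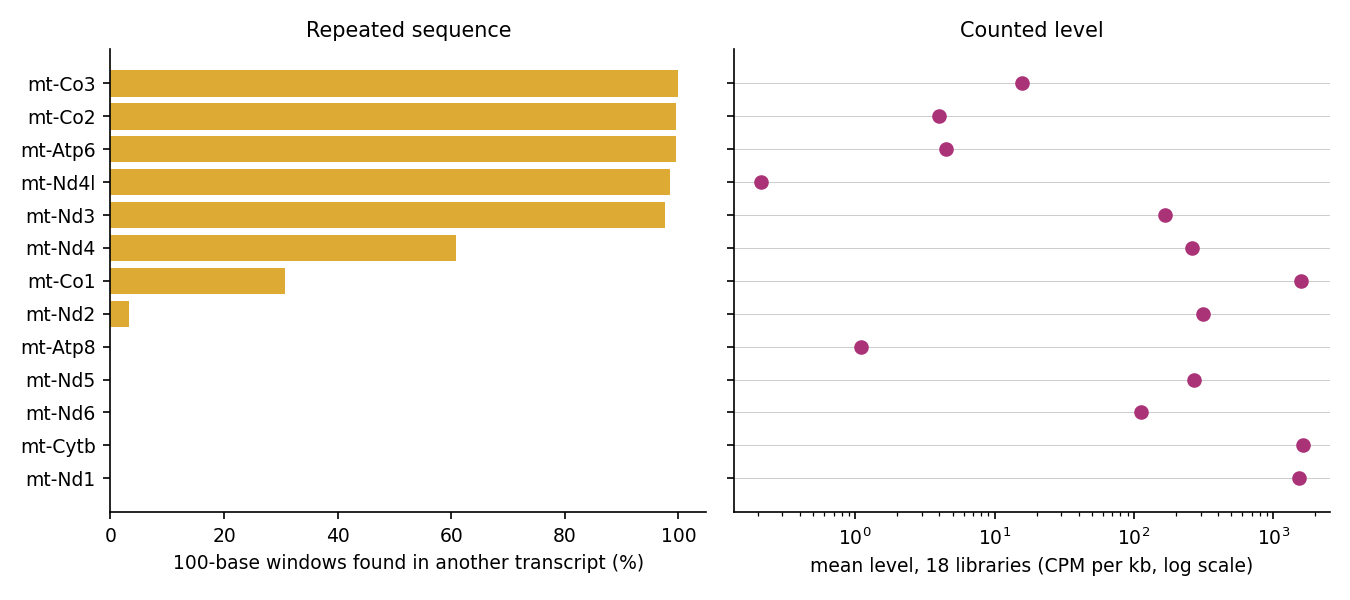
Left, for each of the 13 mitochondrial protein genes (rows), a bar for the percentage of its 100-base windows that also occur in another annotated transcript; right, a point for its mean level over 18 libraries (CPM per kb of counted exon, log scale). Genes without windows in another annotated transcript reach 1622 CPM per kb (mt-Cytb), and mt-Co2, at 99.5%, lies at 4.02.

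Among the nuclear members complex V took the largest share, 40.5% to 52.6% of the nuclear sum. Complex I took 24.7% to 30.2%, complex IV 10.1% to 19.6% and complex III 10.5% to 12.6%. Atp5b and Atp5a1, the beta and alpha subunits that form the catalytic head of ATP synthase, alone made up 21.3% to 36.6%. Their levels varied little, between 1969 and 2542 CPM for Atp5b and between 1077 and 1361 CPM for Atp5a1.

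Per kilobase the most abundant nuclear members were, for complex V, Atp5b (mean 514 CPM per kb), Atp5a1 (390) and Atp5c1, the central stalk subunit (226). For complex IV they were Cox6a1 (350), Cox8a (302) and Cox6b1 (256), all small nuclear-encoded subunits. For complex I they were Ndufb9 (167), Ndufc2 (165) and Ndufa1 (137), accessory subunits of the membrane arm, and for complex III Uqcr11 (148), the smallest subunit, Uqcrc1 (135), a core protein, and Uqcrfs1 (130), the Rieske iron-sulfur protein. Kilobases here count all annotated exons of a gene together, so the ranks depend on that length as well as on the counts.

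Where a subunit has tissue-specific paralogs, these libraries held the form that is known from most tissues, including brain. Cox4i1 made up 99.4% to 99.9% of the per-kilobase sum with Cox4i2 (the form of lung and hypoxic cells), and Cox6a1 made up 99.2% to 100% of that with Cox6a2 (the heart and muscle form). Cox6b1 made up 98.5% to 99.9% with Cox6b2 (the testis form), and Ndufa4 98.7% to 99.8% with Ndufa4l2 (a form induced by hypoxia). Cox8b and Cox8c had no count in any of the 18 libraries. A second gene entry for Atp5o had none either, but 100% of its 530 counted bases also lie in exons of the main Atp5o entry or Donson. Its reads cannot be told apart from theirs, so this does not show that it is silent. Cox7a2 took 54.3% to 67.2% and Cox7a2l, which is known for joining complexes into supercomplexes, 32.6% to 45.5%, whereas the muscle form Cox7a1 took 0.0661% to 0.532%. Of the 3 genes for the c subunit of the ATP synthase ring, Atp5g3 took 64.5% to 73.6%, Atp5g1 17.9% to 27.1% and Atp5g2 8.02% to 10.4%. These shares divide by all annotated exons of a gene, 2181 bases for Atp5g3, 4912 for Atp5g1 and 1675 for Atp5g2. Without this division Atp5g1 lay closer to Atp5g3, with mean levels in medial dKO libraries of 287 CPM (Atp5g3), 189 (Atp5g1) and 30.2 (Atp5g2).

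The 2 genomes were then compared by region and genotype. In orbital tissue the 13 mitochondrial genes summed to 4168, 8314 and 5064 CPM in the control libraries of sets A, B and C, and to 5230, 11019 and 8484 CPM in the dKO libraries. The 81 nuclear genes summed to 13106, 12272 and 17271 CPM in the same controls and to 11846, 11019 and 12961 CPM in the dKO libraries. In each set the mitochondrial sum was higher and the nuclear sum lower in the dKO library, while the groups of 3 overlapped for both.

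In medial tissue the mitochondrial sums were 5416, 5481 and 7462 CPM in controls and 5974, 15205 and 6793 CPM in dKO, and the nuclear sums 14024, 10147 and 12580 CPM and 13219, 14682 and 12682 CPM. The dKO library of set B held the highest mitochondrial sum of all 18, and the groups overlapped. In dorsal tissue the mitochondrial sums were 4188, 6737 and 7089 CPM in controls and 4961, 9459 and 6081 CPM in dKO, and the nuclear sums 10022, 11347 and 13291 CPM and 11828, 11311 and 11930 CPM, again with overlap. Within dKO, the nuclear sums of the 3 medial libraries lay above those of the 3 dorsal ones.

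The ratio of the mitochondrial to the nuclear sum carries no dependence on library size. Its log2 ran from -1.77 (orbital control, set C) to 0.05 (medial dKO, set B). The difference between the dKO and control libraries of a set was 0.47, 0.56 and 1.16 in orbital tissue (mean 0.73 ± 0.37, SD, n = 3 sets). It was 0.23, 0.94 and -0.15 in medial tissue (0.34 ± 0.55) and 0.01, 0.49 and -0.07 in dorsal tissue (0.14 ± 0.30). These pairs share a replicate number, and no label states that they belong together. Same-numbered medial libraries did not deviate together (correlations of -0.24 to 0.09), so the SD and the signs by set in medial tissue rest on the number alone. All 3 sets had the same direction in orbital tissue and not in the other regions, where the SD exceeded the mean. These sums are dominated by a few genes. With the mean of log2 values over members in place of sums, so that each gene had equal weight, the differences were positive in all 3 sets in medial tissue too (0.39, 0.83 and 0.09, mean 0.44 ± 0.37), beside 0.73 ± 0.40 in orbital and 0.17 ± 0.35 in dorsal tissue. The orbital mean was 0.43 without the dKO library of set B and 1.11 without the control library of set B, and the medial mean was -0.02 without the dKO library of set B. Among controls the log2 ratio was -1.65, -0.56 and -1.77 in orbital tissue. Medial controls had -1.37, -0.89 and -0.75, and dorsal controls -1.26, -0.75 and -0.91, so the 3 regions overlapped.

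**Figure D2:**
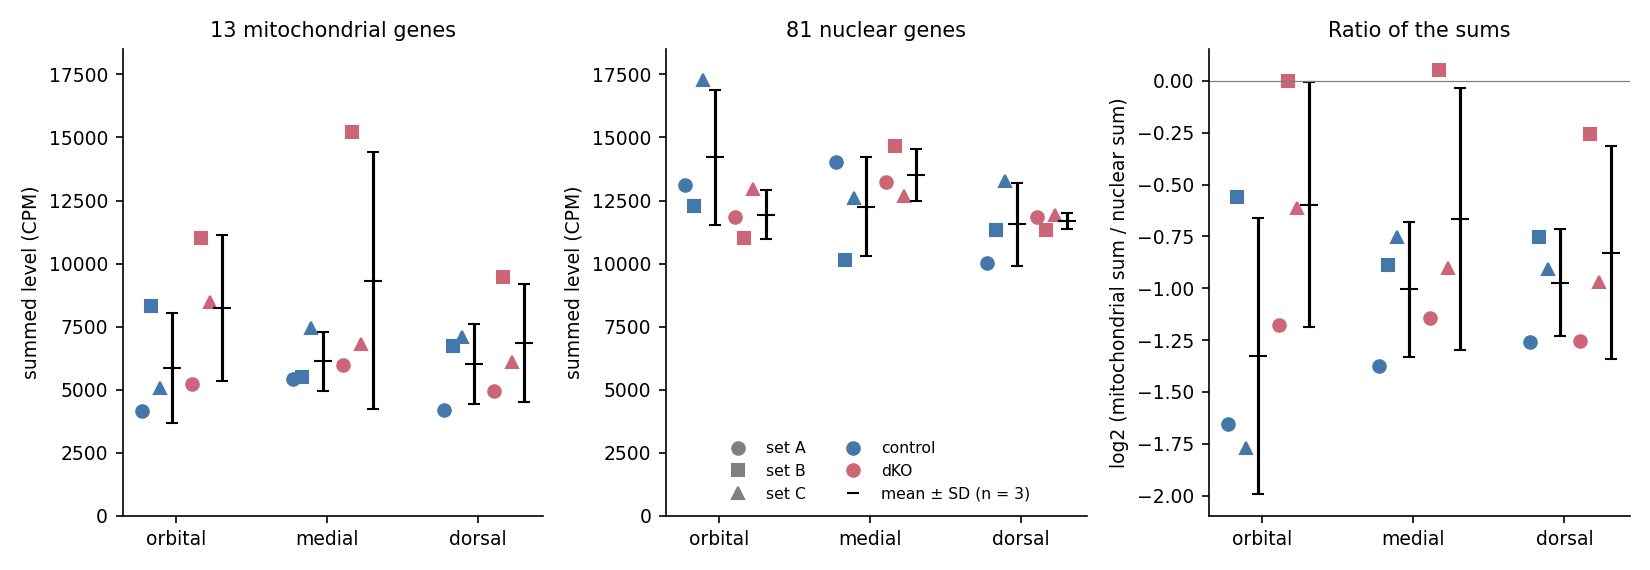
Summed level of the 13 mitochondrial genes, summed level of the 81 nuclear genes (CPM) and log2 of their ratio in each of the 18 libraries, by region; symbols give the set, colours the genotype, and bars the mean ± SD of 3 libraries. The medial dKO library of set B stands highest in the first panel at 15205 CPM. The ratio is higher in dKO than in control in each orbital set, although the orbital groups overlap.

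Gene by gene, each region was tested for dKO against control with edgeR's quasi-likelihood test and Benjamini-Hochberg adjustment over 18730 genes, among them 12 mitochondrial members (mt-Nd4l, with 0 to 0.270 CPM, was too low) and 77 nuclear members. In orbital tissue no member passed an adjusted p of 0.05, where 0.0374% of all genes did. At an unadjusted p under 0.05 there were 5 members, 5.62% of the 89 tested against 13.9% of all genes, and DESeq2 called 0 (2.3% of all genes). With the set number as a block, edgeR called 14 genes in place of 7, with 0 members among them. The signs were divided by genome. All 12 mitochondrial members had a positive log2 fold change, with a median of 0.47, and 74 of 77 nuclear members a negative one, with a median of -0.34, beside a median of -0.03 over all genes tested. Members of 1 genome vary together across libraries, so these counts are not independent observations.

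Every one of the 35 nuclear subunits of complex I was negative in orbital tissue (median -0.37), as were 7 of 8 of complex III (-0.43), 16 of 17 of complex IV (-0.34) and 16 of 17 of complex V (-0.25). The positive exceptions were Uqcrc2 (complex III), Cox6a2 (complex IV) and Atp5g2 (complex V), none of them called. The medians moved with single libraries, to 0.77 for the mitochondrial members without the control library of set B and to -0.12 for the nuclear members without the control library of set C.

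The nuclear member with the lowest p in orbital tissue was Uqcr11 (chromosome 10, bases 80402997 to 80406830, minus strand). It was at 106, 98.1 and 188 CPM in controls and 80.5, 64.3 and 85.02 CPM in dKO, so the groups did not overlap. Its log2 fold change was -0.77 (SE 0.314, edgeR adjusted p = 0.292), which did not pass the test. Atp5k, the e subunit in the membrane part of ATP synthase, was at 20.3, 21.1 and 36.8 CPM in controls and 17.7, 11.5 and 16.0 CPM in dKO (log2 fold change -0.78, SE 0.364, edgeR adjusted p = 0.353). Its groups did not overlap either, but the control library of set C was high for both genes. Without that library the log2 fold change was -0.42 for Uqcr11 and -0.46 for Atp5k.

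Ndufb8, an accessory subunit of the membrane arm of complex I, was at 272, 302 and 480 CPM in orbital controls and 187, 174 and 328 CPM in dKO (-0.61, SE 0.284, edgeR adjusted p = 0.354), with overlap. Ndufa13, another accessory subunit that shares 30.0% of its counted bases with Tssk6, was at 104, 100.2 and 142 CPM in controls and 91.7, 63.5 and 85.5 CPM in dKO (-0.53, edgeR adjusted p = 0.354), with the groups apart. Of the mitochondrial members mt-Nd5, a proton-pumping subunit of complex I, had the lowest p. It was at 253, 511 and 361 CPM in controls and 386, 799.8 and 546 CPM in dKO (0.62, SE 0.278, edgeR adjusted p = 0.335). It was higher in dKO in each set, but the control library of set B lay above the dKO library of set A.

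In medial tissue edgeR again called no member, beside 2.08% of all genes. At an unadjusted p under 0.05 there were 3 members (all genes: 15%), and DESeq2 called 2, beside 6.61% of all genes by DESeq2. All 12 mitochondrial members were positive (median 0.57), and the nuclear members were divided, 54 positive and 23 negative (median 0.13, beside 0.00 for all genes). The 3 members under 0.05 were mitochondrial. mt-Nd3 was at 41.3, 29.8 and 40.2 CPM in controls and 98.9, 207 and 70.6 CPM in dKO, with no overlap (1.56, SE 0.53, edgeR adjusted p = 0.147, DESeq2 adjusted p = 0.0339). mt-Co3 was at 9.33, 8.12 and 9.16 CPM in controls and 17.4, 38.1 and 12.8 CPM in dKO, also without overlap (1.21, SE 0.381, edgeR adjusted p = 0.115, DESeq2 adjusted p = 0.0287). mt-Atp6 was at 2.08, 2.27 and 2.70 CPM in controls and 3.57, 7.87 and 3.07 CPM in dKO (0.91, SE 0.358, edgeR adjusted p = 0.225).

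These 3 genes are among those whose windows recur on chromosome 1. The 5 genes with few repeated windows had a medial median of 0.47, all positive, and each of the 3 abundant genes had a similar value (mt-Nd1 0.43, mt-Cytb 0.43, mt-Co1 0.43). The dKO library of set B was the highest in medial tissue for all of the genes just given. Without it the median of the mitochondrial members was 0.21, and the log2 fold change of mt-Co1 was -0.01.

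Nuclear members in medial tissue showed small differences in both directions. The lowest p among positive ones belonged to Atp5l, the g subunit of ATP synthase (0.58, SE 0.285), Ndufc2 (0.43, SE 0.217) and Ndufs4 (0.37, SE 0.194), an accessory subunit needed for the assembly of complex I. Among negative ones it belonged to Atp5s, counted in complex V by its symbol (-0.42, SE 0.224), Ndufs1, the large iron-sulfur subunit of complex I (-0.26, SE 0.14), and Atp5b (-0.19, SE 0.117). None of the 6 passed (edgeR adjusted p from 0.352 to 0.504). Without the medial control library of set A the nuclear median was 0.39, and 30 members lay under an unadjusted p of 0.05 (all genes: 17%), still with none called (all genes: 1.87%).

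In dorsal tissue edgeR called 0 members, beside 0.0214% of all genes, and DESeq2 called 0 (0.489% of all genes). At an unadjusted p under 0.05 there were 0 members, beside 6.78% of all genes. The mitochondrial median was 0.17 (11 of 12 positive), that of the nuclear members -0.04 (28 positive, 49 negative) and that of all genes -0.01. The lowest p belonged to Cox6a2 (1.10, SE 0.648, edgeR adjusted p = 0.802), which was at 0.0849, 0.829 and 0.724 CPM in controls and 0.356, 0.460 and 1.98 CPM in dKO, a very low level, and overlapping. Next among the nuclear members came Ndufb5 (0.24) and, lower in dKO, Atp5k (-0.44), with edgeR adjusted p of 0.894 and 0.899.

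Counts were also summed over the 3 regions of each row, giving 3 control and 3 dKO values. Again edgeR called 0 members (0.0249% of 20083 genes) and DESeq2 called 0 (1.86%). At an unadjusted p under 0.05 there were 2 members (9.03% of all genes), mt-Nd3 (0.86, SE 0.282, edgeR adjusted p = 0.439) and mt-Co3 (0.73, SE 0.279, edgeR adjusted p = 0.504). The 12 mitochondrial members were positive (median 0.42), and 65 of 78 nuclear members negative (median -0.12, all genes -0.03). The mitochondrial median was 0.15 without the dKO row of set B. Atp5a1 and Atp5b, the most abundant nuclear members, had log2 fold changes of -0.05 (SE 0.14) and -0.16 (SE 0.132).

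**Figure D3:**
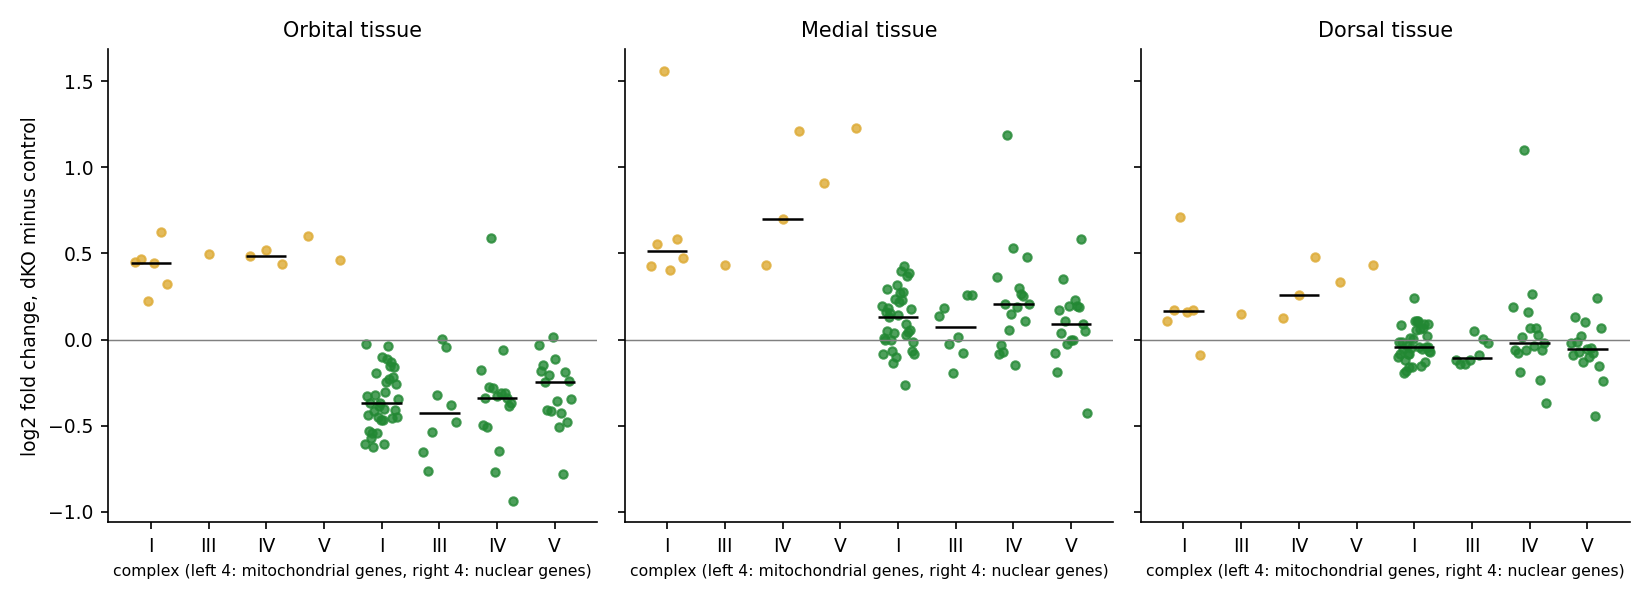
Log2 fold change, dKO against control (y axis), of each tested member by complex in orbital, medial and dorsal tissue, with mitochondrial genes in yellow on the left and nuclear genes in green on the right of each panel; each point is 1 gene, and bars mark medians of groups of 3 or more genes. In orbital tissue mitochondrial members lie above 0 (median 0.47) and nuclear members mostly below (median -0.34), and in dorsal tissue both medians are near 0 (0.17 and -0.04).

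Other genes of the pathway and the markers of cell types gave these values beside the same comparisons. In orbital tissue none of the lists had a member called by edgeR. The 6 other chain subunits (succinate dehydrogenase, cytochrome c and Ndufab1) were all negative (median -0.32), as were 32 of 38 assembly factors (-0.11), 13 of 16 genes of the tricarboxylic acid cycle (-0.15) and 63 of 74 mitochondrial ribosomal protein genes (-0.18). The 2 mitochondrial ribosomal RNAs were positive (0.34 and 0.63). Markers of microglia (9 of 9) and of meningeal fibroblasts (7 of 7) were also negative in orbital tissue, with medians of -0.71 and -0.62. The summed microglial markers ranged from 243 to 295 CPM in orbital controls and from 128 to 209 CPM in dKO, and the fibroblast markers from 1862 to 2563 and from 939 to 1667 CPM. All 12 cell cycle genes were positive (median 0.62, none called), and their sum was 220, 204 and 141 CPM in orbital controls and 375, 321 and 242 CPM in dKO, without overlap. The part of these markers in the members' values was not tested, and in bulk tissue fewer cells of a type and less RNA per cell cannot be told apart.

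In medial tissue 11 of 12 cell cycle genes rose in dKO by edgeR (median 1.56), as did 4 of 10 progenitor markers (Eomes, Gas1, Pax6 and Vim, median of the list 0.84), and 4 of 10 neuronal markers fell (Stx1a, Syn1, Syn2 and Syt1, median -0.43). Summed neuronal markers were 6057 to 7742 CPM in medial controls and 5253 to 5790 CPM in dKO. Of the cytosolic ribosomal protein genes 75 of 77 were positive (median 0.36) with none called, 0 of 74 mitochondrial ribosomal protein genes, 0 of 38 assembly factors and 0 of 16 genes of the tricarboxylic acid cycle were called, and of 17 glycolytic genes 1 rose, Aldoc (1.22), an aldolase of astrocytes and progenitors. The astrocyte marker Mlc1 also rose (1.29). Summed red cell genes were 1107, 801 and 809 CPM in medial controls and 3111, 1489 and 1896 CPM in dKO, without overlap and with 0 of 4 called. The part of these markers in the members' values was not tested.

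For the regions the fit had a term for each row, so that a library was set against the others of its own row. Orbital against dorsal tissue was the comparison in which members passed the test. Here 2 nuclear members were higher in orbital tissue by edgeR, 2.25% of the 89 tested beside 15.8% of all genes, and DESeq2 called the same 2, beside 23.4% of all genes by DESeq2. The members' share was thus below that of all genes by either tool. Under an unadjusted p of 0.05 lay 10 members, all nuclear and higher in orbital tissue (all genes: 30.2%). The nuclear median was 0.30 and the mitochondrial median -0.10, beside 0.03 for all genes, and 71 of 77 nuclear members were positive.

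Ndufb8 (chromosome 19, bases 44548572 to 44555440, minus strand) was at 272, 302 and 480 CPM in orbital controls and 132, 176 and 233 CPM in dorsal controls, with no overlap. Its log2 fold change was 0.84 (SE 0.249, edgeR adjusted p = 0.0366). Cox6b2 (chromosome 7, bases 4751792 to 4753094, minus strand) was at 1.89, 3.93 and 2.34 CPM in orbital controls and 0.552, 0.483 and 1.86 CPM in dorsal controls, also without overlap (1.70, SE 0.528, edgeR adjusted p = 0.0431). Both were higher in the orbital library of each set. Both calls depended on single libraries and on the block. Leaving out 1 library at a time gave edgeR adjusted p of 0.0403 to 0.180 for Ndufb8, which was lost without the orbital control of set B or C or the dorsal control of set A or C. For Cox6b2 the range was 0.013 to 0.200, and the call held only without the orbital control of set C. Without the row as a block the adjusted p was 0.114 and 0.259.

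Markers of other cells moved in the same comparison of controls. By edgeR 7 of 9 microglial markers, 3 of 7 fibroblast markers, 4 of 4 tested red cell genes, 6 of 12 cell cycle genes and 4 of 10 progenitor markers were higher in orbital tissue, and 4 of 10 neuronal markers were lower. The astrocyte markers Gja1 (1.25) and S100b (1.35) and the muscle gene Myh8 (5.06) were also called higher, and the oligodendrocyte lineage marker Cspg4 lower (-1.35). Summed red cell genes were 1681 to 2129 CPM in orbital and 575 to 1172 CPM in dorsal controls. Their part in the values of Ndufb8 and Cox6b2 was not tested. Of the pathway, Sdhd, the membrane anchor of succinate dehydrogenase, was higher in orbital tissue (0.37), and so was Suclg2, a subunit of succinyl-CoA ligase (1.16). Lower there were Lrpprc, which stabilises mitochondrial messages (-0.57), Elac2, which cuts mitochondrial transcripts (-0.38), and the regulators Creb1 (-0.72), Esrrg (-1.49) and Pprc1 (-0.64), all past an edgeR adjusted p of 0.05. Of the glycolytic genes, edgeR called Aldoa (0.30), Gpi1 (0.37) and Ldhb (0.41) higher in orbital tissue, and Hk1 (-0.55) and Pfkm (-0.47) lower.

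The other comparisons between control regions gave no called member. Medial against dorsal tissue had 0 members by edgeR (0.491% of all genes), 0 by DESeq2 (2.02%) and 2 under an unadjusted p of 0.05 (all genes 9.36%). These were Cox6a2 (-2.58, SE 0.781, edgeR adjusted p = 0.245), at 0.0107, 0.115 and 0.155 CPM in medial controls, a very low level, and Atp5s (0.52, SE 0.199). Medial against orbital tissue had 0 by edgeR (9.02% of all genes), 1 by DESeq2 (Cox6b2, beside 17.6% of all genes) and 2 under an unadjusted p of 0.05 (all genes 24.3%). These were Cox6b2 (-1.45, SE 0.53, edgeR adjusted p = 0.105) and Ndufb8 (-0.62, SE 0.251, edgeR adjusted p = 0.145). Without the medial control of set A, however, 15 nuclear members were called lower in medial than in orbital controls (log2 fold change -1.01 to -0.47), beside 10.5% of all genes. Over all libraries edgeR also called 6 of 9 microglial markers (Tmem119, -1.67), 4 of 7 fibroblast markers, 4 of 12 cell cycle genes, 4 of 10 progenitor markers, 2 of 6 astrocyte markers and 2 of 4 red cell genes lower in medial controls. Of 10 neuronal markers it called 2 higher and 1 lower. Their part in these members' values was not tested. Of the pathway, edgeR called Creb1 (0.74) higher in medial than in orbital controls. Called lower were Suclg2 (-0.99) and the glycolytic genes Aldoa (-0.31), Gpi1 (-0.51), Ldhb (-0.44) and Pfkp (-0.46).

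Within dKO the contrast lay between medial and dorsal tissue. No member was called by edgeR (2.09% of all genes), 4 by DESeq2 (beside 8.82% of all genes), and 22 lay under an unadjusted p of 0.05 (24.7% of the 89 tested, all genes 17.8%), 21 of them higher in medial tissue. Both medians were positive, 0.53 for the mitochondrial and 0.33 for the nuclear members. The 4 called by DESeq2 were mt-Nd2 (0.59, SE 0.182, edgeR adjusted p = 0.113), mt-Nd6 (0.64, SE 0.201, edgeR adjusted p = 0.120), Ndufa4 (0.83, SE 0.264, edgeR adjusted p = 0.122) and Atp5l (0.68, SE 0.23, edgeR adjusted p = 0.140). Ndufa4, a small subunit now assigned to complex IV, was at 284, 455 and 263 CPM in medial and 159, 179 and 198 CPM in dorsal dKO libraries, with no overlap. mt-Nd2, a proton-pumping subunit of complex I, was at 341, 743 and 325 CPM in medial and 199.9, 405 and 266 CPM in dorsal dKO libraries, which overlapped, though each set was higher in medial tissue. The control groups gave 0.35 for Ndufa4 (SE 0.267) and 0.24 for mt-Nd2 (SE 0.182) in the same contrast. Without the medial dKO library of set B, 2 members lay under an unadjusted p of 0.05, beside 11.8% of all genes. Cell markers moved in the same contrast by edgeR: Fabp7, Pax6 and Vim of 10 progenitor markers, Birc5, Cdk1 and Cenpa of 12 cell cycle genes and the astrocyte marker Mlc1 were higher in medial dKO, and Rbfox3, Stx1a and Tubb3 of 10 neuronal markers were lower. Their part in the members' values was not tested.

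Orbital against dorsal dKO tissue gave 0 members by edgeR (0.486% of all genes), 0 by DESeq2 (1.88%) and 1 under an unadjusted p of 0.05 (Cox6a2, -1.88, SE 0.721, all genes 7.26%). The nuclear median was -0.01 there, and 38 of 77 members were positive. Medial against orbital dKO tissue gave 0 by edgeR (0.016% of all genes), 0 by DESeq2 (0.964%) and 8 under an unadjusted p of 0.05 (all genes 7.29%), all higher in medial tissue. Lowest in p were Atp5k (0.80, SE 0.306), Ndufa4 (0.65, SE 0.265) and Atp5l (0.57, SE 0.231), with edgeR adjusted p of 0.634 to 0.647.

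**Figure D4:**
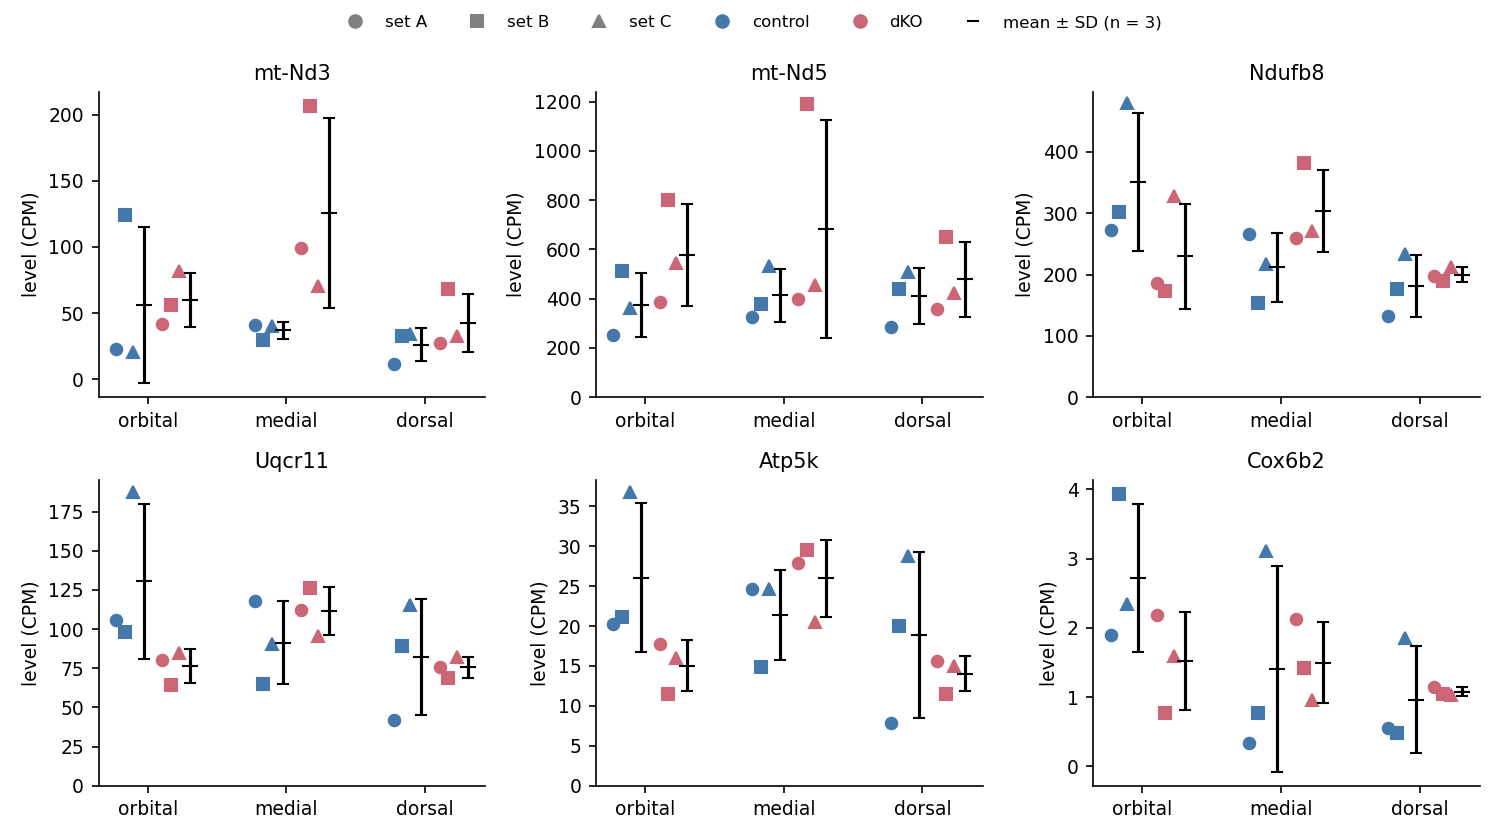
Levels (CPM, y axes) of mt-Nd3, mt-Nd5, Ndufb8, Uqcr11, Atp5k and Cox6b2 in each library by region; symbols give the set, colours the genotype, and bars the mean ± SD of 3 libraries. In orbital tissue the control points of Uqcr11 (98.1 to 188 CPM) lie above the dKO points (64.3 to 85.02 CPM), and the highest point of mt-Nd3 is the medial dKO library of set B at 207 CPM.

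Whether the dKO effect differed between medial and orbital tissue was tested as a contrast of its own. By edgeR 0 members were called (1.47% of all genes), DESeq2 called 1 (beside 12.5% of all genes), and 11 lay under an unadjusted p of 0.05, all nuclear and positive, that is, with a higher dKO effect in medial tissue (12.4% of the 89 tested, all genes 20.6%). The nuclear median of the difference was 0.48, with 71 of 77 positive, beside 0.09 for the mitochondrial members, of which 7 of 12 were positive, and 0.01 for all genes. The lowest p was that of Ndufb8 (1.05, SE 0.355, edgeR adjusted p = 0.124, DESeq2 adjusted p = 0.0411). Its level was 266, 153 and 217 CPM in medial controls and 259, 381 and 271 CPM in medial dKO, against 272, 302 and 480 CPM in orbital controls and 187, 174 and 328 CPM in orbital dKO. Uqcr11 had a difference of 0.90 (SE 0.400, edgeR adjusted p = 0.221), Atp5l of 0.76 (SE 0.326) and Atp5j, a coupling factor of ATP synthase, of 0.70 (SE 0.306). Among the negative nuclear members the lowest p belonged to Ndufs1 (-0.24, SE 0.155), Ndufa10 (-0.08, SE 0.162) and Atp5a1 (-0.06, SE 0.113).

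The count of called members in this contrast depended on the medial control library of set A, the one that stood apart in its cell markers. Without it 37 nuclear and 0 mitochondrial members were called, all positive (0.80 to 1.47), beside 9.88% of all genes. Ndufb8 then had a difference of 1.44 (edgeR adjusted p = 0.0145), Ndufa4 of 1.32 (0.0157), Uqcr11 of 1.45 (0.0152), Atp5k of 1.47 (0.0247) and Cox6a1 of 0.84 (0.0227). Atp5b (0.02) and Atp5a1 (-0.07) were near 0. Leaving out some other single libraries lowered the differences, down to 0.72 for Ndufb8, 0.51 for Ndufa4 and 0.61 for Uqcr11. Over all such fits the edgeR adjusted p reached 0.377, 0.572 and 0.505. The orbital control library of set C also lay at an extreme, with the lowest neuronal markers (4978 CPM) and the highest microglial ones (295 CPM). In the same contrast over all libraries the 9 microglial and the 7 fibroblast markers were all positive (medians 1.07 and 0.97), and the 10 neuronal markers were all negative (-0.61). Of the marker lists, edgeR called the progenitor markers Fabp7 and Vim and the cell cycle genes Ccnb2, Cdk1 and Cenpa, all positive. It also called the microglial markers Tmem119 and Trem2, both positive, and the neuronal marker Tubb3, which was negative. The part of these markers in the result was not tested.

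Of 15 regulators of mitochondrial biogenesis 1 was called in the contrast of medial and orbital dKO effects, beside 1.47% of all genes. No other gene of the pathway lists was called in it. Ppargc1a, which encodes the coactivator PGC-1 alpha of nuclear respiratory genes, was at 18.2, 14.1 and 22.1 CPM in orbital controls and 30.1, 33.1 and 27.2 CPM in orbital dKO, with no overlap. In medial tissue it was at 18.6, 22.4 and 28.3 CPM in controls and 15.7, 16.1 and 16.3 CPM in dKO, again without overlap but in the opposite direction. Neither difference was called within its region (0.72, SE 0.212, edgeR adjusted p = 0.176, and -0.60, SE 0.212, edgeR adjusted p = 0.171). The difference between them was -1.32 (SE 0.238, edgeR adjusted p = 0.0278). Its sign was opposite to that of most nuclear members in this contrast, and leaving out 1 library at a time gave edgeR adjusted p of 0.0132 to 0.124. The call was lost without the orbital dKO library of set A or B, the medial dKO library of set A or B, the orbital control of set B or C or the medial control of set B, and without the row term (0.203).

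Nuclear members differed in how much they varied between libraries, and this followed the length of their coding sequence. Over the 18 libraries the SD of log2(CPM + 0.5) was 0.09 for Atp5a1, 0.12 for Atp5b and 0.13 for Ndufs1, which have long coding sequences. It was 0.55 for Atp5k, 0.54 for Ndufa4 and 0.47 for Uqcr11, which have short ones. For the 72 nuclear members whose mean reached 5 CPM the rank correlation of this SD with coding length was -0.82. It was -0.58 with the mean CPM, and length and CPM correlated at 0.53. The genes share libraries and the correlation is a description of them. The 33 members with coding sequences shorter than 393 bases had a median SD of 0.39, and the 39 longer ones 0.24. Among all 11203 protein-coding genes with the same minimum level the correlation was 0.20, and the corresponding medians were 0.34 (457 genes) and 0.32 (10746 genes).

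**Figure D5:**
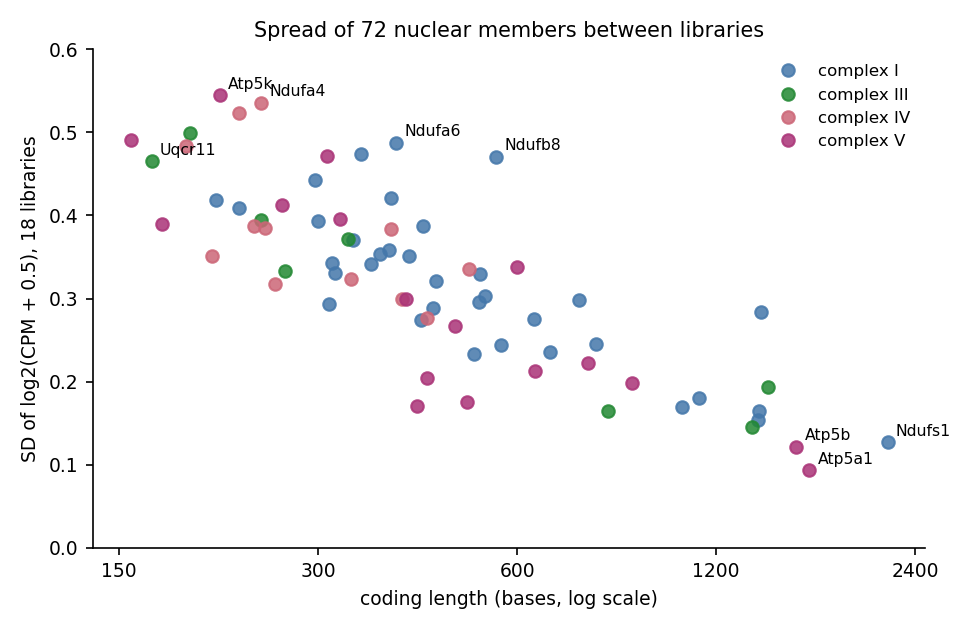
SD of log2(CPM + 0.5) over 18 libraries (y axis) against coding length in bases (x axis, log scale) for 72 nuclear members, coloured by complex. Short members such as Atp5k (SD 0.55) lie at the top left and long ones such as Atp5a1 (0.09) at the bottom right.

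The comparisons above carried this division. In orbital tissue the tested members with coding sequences shorter than 393 bases had a median log2 fold change of -0.42 and the longer ones -0.25. In medial tissue the medians were 0.20 and 0.01, and in the contrast of the dKO effects between medial and orbital tissue 0.59 and 0.29, where all 37 shorter members were positive. The summed level of the shorter members ranged from 1427 CPM (dorsal control, set A) to 4632 CPM (orbital control, set C) and that of the longer ones from 8064 to 12639 CPM. Length and level go together in this set, and their parts were not tested.

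The X-linked members were Ndufa1, Ndufb11 and Cox7b. Xist, the transcript that marks the inactive X of females, lay between 9.45 and 31.4 CPM in sets A and C of the mutants and did not exceed 0.155 CPM elsewhere. Genotype and sex cannot be told apart in these sets, for X-linked genes as for all others. Ndufa1, an accessory subunit of complex I, was at 56.7, 65.9 and 96.0 CPM in orbital controls and 45.1, 44.3 and 53.4 CPM in orbital dKO, with the groups apart (-0.61, SE 0.293, edgeR adjusted p = 0.371). Ndufb11 (complex I, -0.45) and Cox7b (complex IV, -0.31) had the same sign there, and in medial tissue the 3 genes had values of 0.19, 0.04 and 0.26.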

How the data were processed

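The deposited table holds raw read counts per gene. Per the submitters' processing notes reads were aligned with STAR 2.6, and per the file headers the authors counted read pairs with featureCounts 1.6.2 against Ensembl 94 (GRCm38) without strand, so overlapping and antisense genes cannot be told apart. No option for reads with several placements is recorded there. Libraries were SMART-seq v4, which amplifies cDNA. Of the table, 6 per-sample columns could be tied to no sample here and were not used. CPM is counts over the library total. Tests used edgeR 4.0.16 (quasi-likelihood, TMM, filterByExpr with a minimum count of 10) over all genes, with Benjamini-Hochberg adjustment within each comparison at 0.05. Fits of dKO against control held the group means and the title prefix (RAR in set A, RXR in sets B and C), and fits between regions a term per row. DESeq2 1.42.0, other scalings, no filter, a replicate block and leaving out libraries were alternatives. Deviations of control and dKO libraries with the same set number correlated at 0.24 to 0.58 in orbital, 0.16 to 0.52 in dorsal and -0.24 to 0.09 in medial tissue. The best correlation fell within the same set in each dorsal set, in orbital sets A and C and in medial set A. Orbital set B correlated best with set A. The numbers thus pair the samples only in part by the data, and no label states a pairing. Scripts were tested on simulated data. Genes named were drawn from the mitochondrial members, called members, the 3 nuclear members with the lowest p in each direction, the 3 most abundant per complex, paralogs and X-linked members. Not all of these are given for each comparison, and Ndufa13 was given in addition for dKO against control in orbital tissue. Called genes of the pathway and marker lists were named after their values were seen. Members and lists were chosen with earlier results of these data known.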

Additional observations from a re-analysis of the deposited data

Results flagged for a closer look

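The dKO effect on Ppargc1a, the coactivator of nuclear respiratory genes, differed between regions by a test of the difference itself. It was -1.32 on the log2 scale, medial minus orbital (SE 0.238, edgeR adjusted p = 0.0278), with 3 of 3 orbital dKO libraries above all orbital controls and 3 of 3 medial dKO libraries below all medial controls. Over all genes 1.47% were called in this test. Neither regional difference of Ppargc1a was called by itself (edgeR adjusted p = 0.176 and 0.171). The call was lost on leaving out any of 7 of the 12 orbital and medial libraries (edgeR adjusted p over all 12 from 0.0132 to 0.124) and without the row term (0.203).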

How the results depend on the processing

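Counts of members called moved with the setting. DESeq2 called 2 members in medial tissue, dKO against control (all genes: 6.61%), 1 in medial against orbital controls (17.6%), 4 in medial against dorsal dKO (8.82%) and 1 in the contrast of dKO effects (12.5%). With no filter on low counts edgeR tested 34890 genes, 91 of them members. It called 2 members in medial tissue (all genes: 1.62%), 12 in orbital against dorsal controls (9.84%), 2 in medial against orbital controls (7.25%), 15 in medial against dorsal dKO (3.35%), 1 in medial against orbital dKO (0.565%) and 4 in the contrast of dKO effects (4.59%). The cause was not tested. With no replicate block orbital against dorsal controls gave 0 (all genes: 1.74%).

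Leaving out 1 library at a time gave 0 to 2 members in orbital against dorsal controls, 0 to 15 in medial against orbital controls and 0 to 37 in the contrast of dKO effects. The 15 and the 37 were reached without the medial control of set A (all genes: 10.5% and 9.88%). The orbital mitochondrial median ran from 0.32 to 0.77. In orbital against dorsal dKO the medians ran from 0.039 to 0.326 (mitochondrial) and from -0.087 to 0.082 (nuclear). The log2 ratio of the genomes, dKO minus control, ran from 0.43 to 1.11 in orbital, -0.02 to 0.58 in medial and -0.14 to 0.36 in dorsal tissue.

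With the replicate number as a replicate block the mitochondrial and nuclear medians were 0.49 and -0.33 for orbital tissue, 0.50 and 0.18 for medial, 0.14 and -0.04 for dorsal, and 0.38 and -0.11 in the summed rows, with 0 members called in each. Genes called were then 14, 662, 6 and 6. The same-numbered medial samples did not deviate together (-0.24, 0.08 and 0.09), so there the block rests on a shared number only. In orbital tissue set B correlated better with set A than within its own number.

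Over the alternatives other than leaving out a library, genes called ranged from 2 to 430 in orbital, 19 to 1118 in medial and 2 to 81 in dorsal tissue. Without set A, an alternative chosen after seeing the data, the medians were 0.49 and -0.42 for orbital, 0.80 and 0.32 for medial and 0.18 and -0.21 for dorsal tissue, with 0 members called.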
